A study of Mus musculus with 2 samples.

Results

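The 6 surface genes that define or accompany the sort of muscle stem cells (MuSCs) were followed through all captured cells. They are 6 of the 32285 genes in the matrices. They were taken by name from the sort and not by any measured value. Vcam1 encodes VCAM1, the antigen on which MuSCs were kept in the antibody sort that the study's methods describe. Pecam1 (CD31), Ptprc (CD45) and Ly6a (SCA1) encode the antigens on which that sort discarded endothelial, hematopoietic and mesenchymal cells. Sdc4 (syndecan 4) and Cxcr4 encode surface proteins of MuSCs that were not part of that sort.

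VCAM1 is an adhesion protein that binds integrin alpha4 beta1 on other cells, and in resting muscle it marks MuSCs beneath the basal lamina. CD31 is an adhesion protein of endothelial junctions, CD45 is a receptor tyrosine phosphatase of blood cells, and SCA1 is a GPI-anchored protein of the Ly6 family found on fibro-adipogenic progenitors and endothelium. Syndecan 4 is a heparan sulfate proteoglycan that presents growth factors and fibronectin to the cell, and CXCR4 is the receptor of the chemokine CXCL12.

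Transcripts were counted at their 3′ ends in single cells of the plantaris muscle, after sham surgery or after mechanical overload (MOV) by synergist ablation, with 1 droplet library per condition. Both groups were Pax7rtTA; TRE-H2B-GFP mice of 26 weeks, in which the Pax7 locus drives the doxycycline-dependent activator and a histone-GFP fusion labels nuclei, and both received doxycycline at 2.0 mg/ml for 2 weeks in water with 2% sucrose. The surgery was the sole labelled difference, and the growth stimulus lasted 5 days. The GEO protocol speaks of a single mouse and antibodies against VCAM, CD31, CD45 and Sca1, the study's methods describe several animals for each suspension, and the series design names GFP as the sorted signal, so the number of animals and the gate behind each library are not settled. All values are transcripts in cells that had passed the sorter, not the protein on which the sorter acted.

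The sham library held 1100 cells and 7302661 unique molecular identifiers (UMIs), with a median of 4116.5 UMIs per cell, and the MOV library held 3854 cells and 88498487 UMIs, with a median of 16836. Both libraries carry the label of muscle stem cells, but MuSC-like cells (Pax7, Myf5, Fgfr4 and other markers) made up 11.1% of the sham cells (122 cells) and 38.8% of the MOV cells (1496 cells). Sham also held 574 fibre-like, 49 fibro-adipogenic-like, 33 mural-like, 23 tenocyte-like, 18 erythroid-like, 16 Schwann-like, 9 endothelial-like, 2 myocyte-like and 2 myeloid-like cells. MOV held 854 fibro-adipogenic-like, 201 myocyte-like, 110 tenocyte-like, 90 myeloid-like, 82 Schwann-like, 57 fibre-like, 37 mural-like, 34 endothelial-like and 5 erythroid-like cells. Groups were set by UMIs of marker lists that contain none of the 6 genes, 10 and 103 cells that passed several lists were set apart as mixed, and 242 and 785 cells passed none. The unassigned cells had a median mitochondrial share of 99.2% in sham and 65.7% in MOV. With 1 library per condition no difference has a replicate check, no test was made, and every interval (95%) covers counting error only.

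Before any value is read, 44 cell barcodes occurred in both libraries. In 39 of them the sham cell was the deeper copy and the MOV cell held between 1.75% and 4.32% of its UMIs, and in the other 5 the MOV cell was the deeper. These barcodes held 20.1% of all sham UMIs and 0.733% of MOV UMIs, including 7 of the 122 sham MuSC-like cells and 22 of the 57 MOV fibre-like cells. Of the levels of the 6 genes stated below, those that these barcodes moved by over 1.5 times are given with and without them.

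The genomic setting of both genes outside the gate, Sdc4 and Cxcr4, is shown first. They were chosen as the members whose summed MuSC-like level was lower in MOV by 2-fold or more under at least 1 scaling. The windows are the 250 bases before the RefSeq start on the minus strand of GRCm38.p6, chr2:164443189-164443438 for Sdc4 and chr1:128592300-128592549 for Cxcr4, printed 5′ to 3′. Capitals mark matches on either strand to 3 motifs. The GC box was searched as GGGCGG, the TATA box was searched as TATAAA, and the E-box was searched as CANNTG.
Sdc4: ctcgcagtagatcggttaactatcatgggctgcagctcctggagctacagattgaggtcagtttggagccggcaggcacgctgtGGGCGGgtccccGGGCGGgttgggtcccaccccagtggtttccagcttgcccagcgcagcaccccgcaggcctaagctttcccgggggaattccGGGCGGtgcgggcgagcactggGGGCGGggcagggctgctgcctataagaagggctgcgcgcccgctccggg
Cxcr4: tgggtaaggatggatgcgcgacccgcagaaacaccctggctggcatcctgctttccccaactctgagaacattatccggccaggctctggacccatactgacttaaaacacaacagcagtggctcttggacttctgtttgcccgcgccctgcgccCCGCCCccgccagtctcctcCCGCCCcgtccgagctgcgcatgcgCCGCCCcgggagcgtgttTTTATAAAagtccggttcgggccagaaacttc
The Sdc4 window held 4 GC boxes, no E-box and no TATA box, and 68% of its bases were G or C. The Cxcr4 window held 3 GC boxes and no E-box, with 2 TATA box matches on opposite strands that overlap each other near its 3′ end, and 61.2% of its bases were G or C. Among 32851 windows of the same length upstream of RefSeq starts, 66.2% held an E-box, 32.7% a GC box and 12.4% a TATA box. The Sdc4 window lies in an intron of the non-coding Sdc4 transcript, and the Cxcr4 window overlaps no annotated transcript. These matches are letters in a window and say nothing of binding.

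All 6 genes lie on the minus strand in GRCm38: Vcam1 at chr3:116109949-116129688, Pecam1 at chr11:106654217-106750628, Ptprc at chr1:138062861-138175708, Ly6a at chr15:74994877-74998031, Sdc4 at chr2:164424247-164443887 and Cxcr4 at chr1:128588199-128592293. The antisense gene Gm43109 overlaps Vcam1, and A130071D04Rik overlaps Ptprc on the same strand. The 3′ ends of Ly6a and its relatives share sequence: over the last 500 bases of their transcripts the longest run shared with Ly6a was 75 bases in Ly6c1, 56 in Ly6i and 52 in Ly6c2, but 11 in Ly6e. Levels are UMIs of the gene per 1000000 UMIs (CPM) summed over the cells of a group, and they are compared between groups for 1 gene, not between genes.

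**Figure D1:**
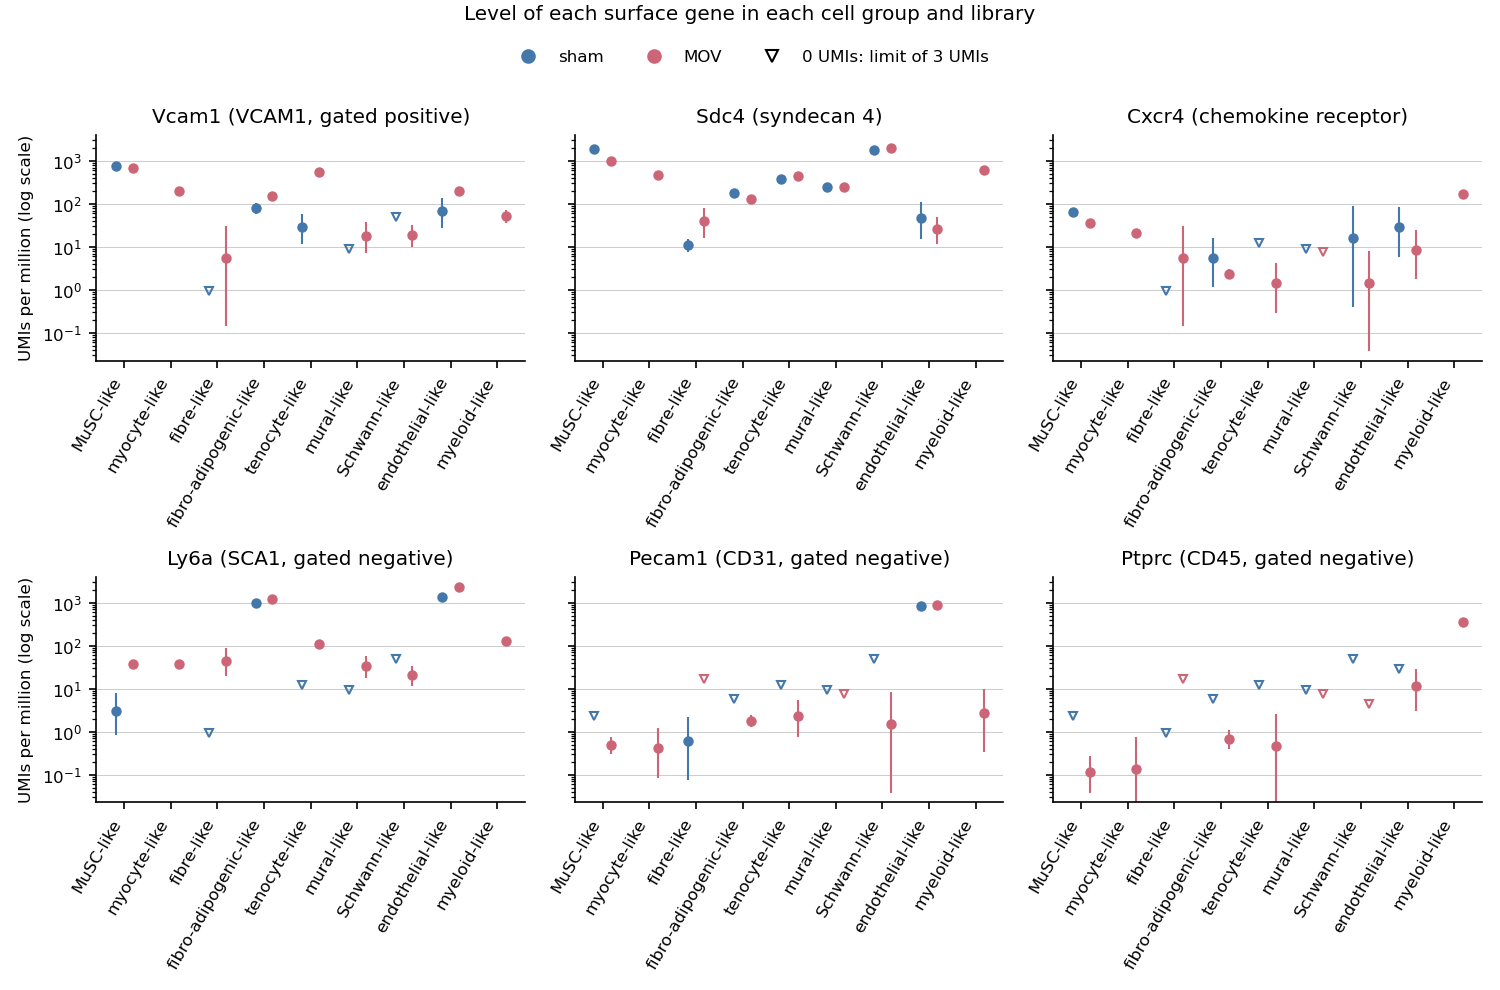
Level of each surface gene (CPM, log scale) by cell group, sham in blue and MOV in red, with exact Poisson intervals of 95%. Open triangles stand for groups with 0 UMIs, at the level 3 UMIs would give, and groups of under 5 cells are not drawn. Vcam1 was highest in MuSC-like cells of both libraries (768 and 674 CPM), Pecam1 in endothelial-like cells and Ptprc in MOV myeloid-like cells.

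Vcam1, the antigen of the positive gate, was highest in MuSC-like cells of both libraries, and MuSC-like cells held 87.1% of all sham Vcam1 UMIs and 75.4% of all MOV Vcam1 UMIs. The sham MuSC-like level was 768 CPM (722 to 817, 1009 UMIs) and the MOV level 674 CPM (666 to 681, 28790 UMIs). In sham the other groups were far lower: 79.0 CPM (56.9 to 107) in fibro-adipogenic-like cells, 66.9 CPM in endothelial-like cells and 29.0 CPM (11.7 to 59.7) in tenocyte-like cells. The 7 endothelial UMIs came from 1 cell, 7 UMIs were also found in 1 of the 2 myocyte-like cells (122 CPM, and 0 UMIs without the shared barcodes), and 2 UMIs in 1 of the 2 myeloid-like cells (69.6 CPM). Tenocyte-like cells lay below fibro-adipogenic-like cells (log2 -1.45, -2.85 to -0.28), but without the shared barcodes the fibro-adipogenic-like level was 19.8 CPM (8.56 to 39.1), the order turned and the intervals overlapped. Endothelial-like and fibro-adipogenic-like cells did not differ beyond their interval (log2 -0.24, -1.64 to 0.93). No Vcam1 UMI was found in the 574 fibre-like, 33 mural-like, 16 Schwann-like or 18 erythroid-like sham cells, so its level in MuSC-like cells was at least 829-fold higher than in fibre-like cells, counting 3 UMIs for the group at 0.

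In MOV tenocyte-like cells came next to MuSC-like cells. Tenocyte-like cells held 539.5 CPM (509 to 572), myocyte-like cells 199 CPM (189 to 210), endothelial-like cells 199 CPM (155 to 251) and fibro-adipogenic-like cells 153 CPM (148 to 158). By summed UMIs MuSC-like cells stood above tenocyte-like cells by little (tenocyte-like minus MuSC-like log2 -0.32, -0.41 to -0.23) and above myocyte-like cells by more (log2 -1.76, -1.83 to -1.68). The mean over cells set them further from tenocyte-like cells, at 936 CPM in MuSC-like, 510 CPM in tenocyte-like and 219 CPM in myocyte-like cells. Myocyte-like and endothelial-like cells had overlapping intervals, and no order was read between endothelial-like and fibro-adipogenic-like cells. The endothelial-like level was the higher by summed UMIs (log2 0.37, 0.01 to 0.71) and the lower by the mean over cells (149 against 171 CPM). Myeloid-like cells followed at 51.4 CPM (36.2 to 70.9), and Schwann-like cells (19.1 CPM), mural-like cells (18.0 CPM) and fibre-like cells (5.62 CPM, 1 UMI) had overlapping intervals. Unassigned cells stood at 57.5 CPM in sham, or 19.2 CPM without the shared barcodes, and at 293 CPM in MOV.

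Because MOV cells were deeper, cells were thinned to 2000 UMIs for shares of cells with a UMI, which left out 245 sham and 695 MOV cells but only 2 MuSC-like cells. At this depth 68.0% of sham MuSC-like cells (59.0 to 76.2, 83 of 122) and 68.5% of MOV MuSC-like cells (66.1 to 70.9, 1024 of 1494) had a Vcam1 UMI. Without thinning the shares were 89.3% and 99.1%, where the median cell held 7844 and 21720 UMIs. The depth-matched shares differed by less than their intervals.

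MOV Schwann-like cells, with 13 Vcam1 UMIs in 82 cells, served as the comparison for free RNA, and their thinned share was 6.76% (2.23 to 15.1, 12.2% unthinned, median depth 7557 UMIs). The share in mural-like cells (3.57%) was not above it. Shares in myeloid-like cells (7.35%, 2.43 to 16.3) and endothelial-like cells (11.1%, 2.35 to 29.2) could not be separated from it at this depth, and 46 of the 70 endothelial UMIs came from 2 cells. Tenocyte-like cells (42.1%, 32.6 to 52.0), myocyte-like cells (27.3%, 20.8 to 34.6) and fibro-adipogenic-like cells (19.0%, 16.2 to 22.1) were above it. Unthinned, these were 67.3%, 65.2% and 59.8%, with medians of 16814, 32729 and 26275.5 UMIs per cell. In sham the shares were 8.70% of 23 tenocyte-like and 6.67% of 45 fibro-adipogenic-like cells, against 0 of 368 fibre-like cells, which allows up to 0.815%.

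**Figure D2:**
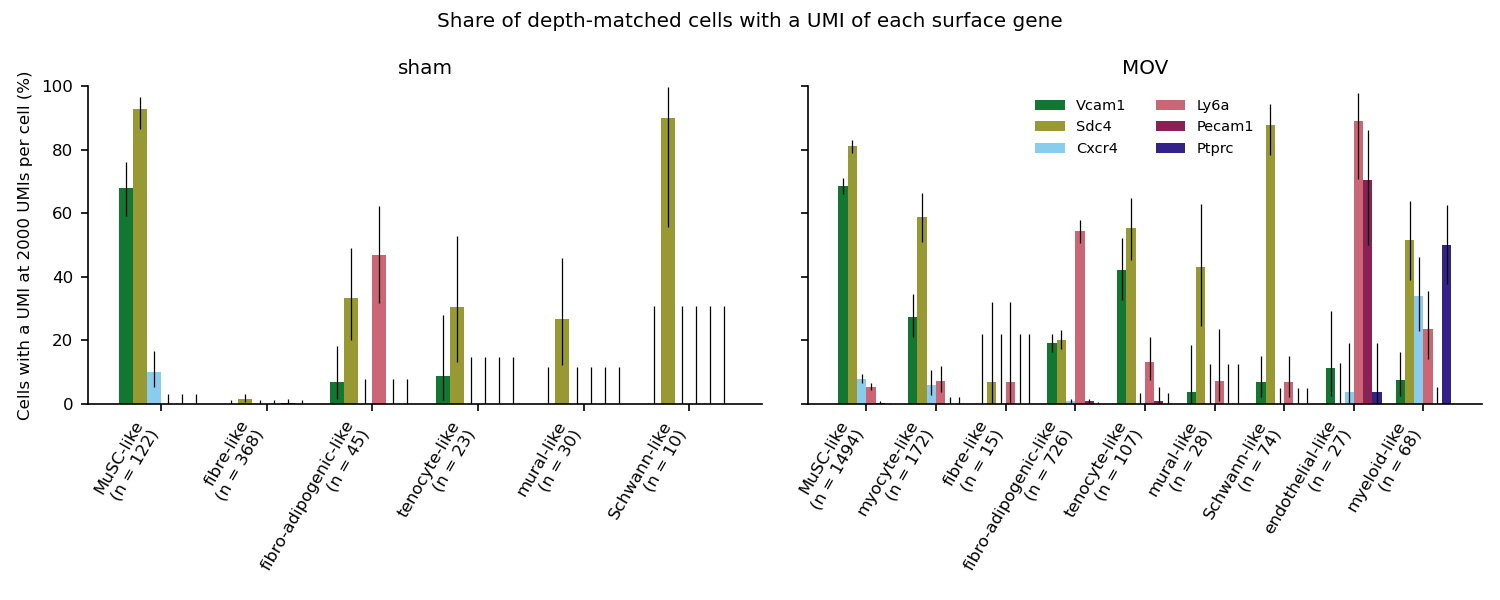
Share of cells with at least 1 UMI of each surface gene after thinning to 2000 UMIs per cell (%), by cell group in sham (left) and MOV (right), with exact Clopper-Pearson intervals of 95%. Groups of under 10 thinned cells are not drawn. Vcam1 was found in 68.0% of sham and 68.5% of MOV MuSC-like cells, and Ly6a in 46.7% and 54.3% of fibro-adipogenic-like cells.

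Within the MuSC-like group, Vcam1 differed by state. Cells were split by a quiescence list (Chrdl2, Calcr, Spry1, Heyl, Hey1), a cycling list (Mki67, Top2a and other mitotic genes) and the remainder. In MOV the level was 1401 CPM in 210 quiescence-list cells, 942 CPM in 695 other cells and 411 CPM in 591 cycling cells. Quiescence-list cells exceeded cycling cells by 1.77 on the log2 scale (1.72 to 1.82), and cycling cells lay below the other cells (log2 -1.20, -1.23 to -1.16). In sham the levels were 926 CPM in 69 quiescence-list cells, 821 CPM in 47 other cells and 297 CPM in 6 cycling cells, or 191 CPM in the 3 of them without shared barcodes. The quiescence list marks a range and not a type, since 29 sham and 341 MOV cells lay within 1.5-fold of its floor. The list holds Chrdl2, Calcr and Heyl, which also count as MuSC markers.

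After depth matching the same order held in MOV, with a Vcam1 UMI in 84.1% of quiescence-list (78.4 to 88.8), 75.0% of other (71.6 to 78.1) and 55.5% of cycling cells (51.4 to 59.6). In sham the quiescence-list and other cells did not differ, at 68.1% (55.8 to 78.8) and 70.2% (55.1 to 82.7).

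Between the libraries, Vcam1 in all MuSC-like cells was lower in MOV by a small amount when UMIs were summed (log2 -0.19, -0.28 to -0.10), whereas the median gene of the group was 0.19 higher. A sum weights deep cells, and the mean over cells ran the other way, at 915 CPM in sham and 936 CPM in MOV. The summed comparison gave log2 -0.37 with TMM scaling and -0.31 without the shared barcodes (846 CPM in sham, 681 CPM in MOV). Within the subgroups the direction was the opposite: quiescence-list cells were higher in MOV (log2 0.60, 0.46 to 0.73), and other cells were higher by 0.20 (0.06 to 0.34), or 0.05 without the shared barcodes. Cycling cells, the group with the least Vcam1, were 6 of 122 MuSC-like cells in sham and 591 of 1496 in MOV. None of these Vcam1 differences reached 2-fold.

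**Figure D3:**
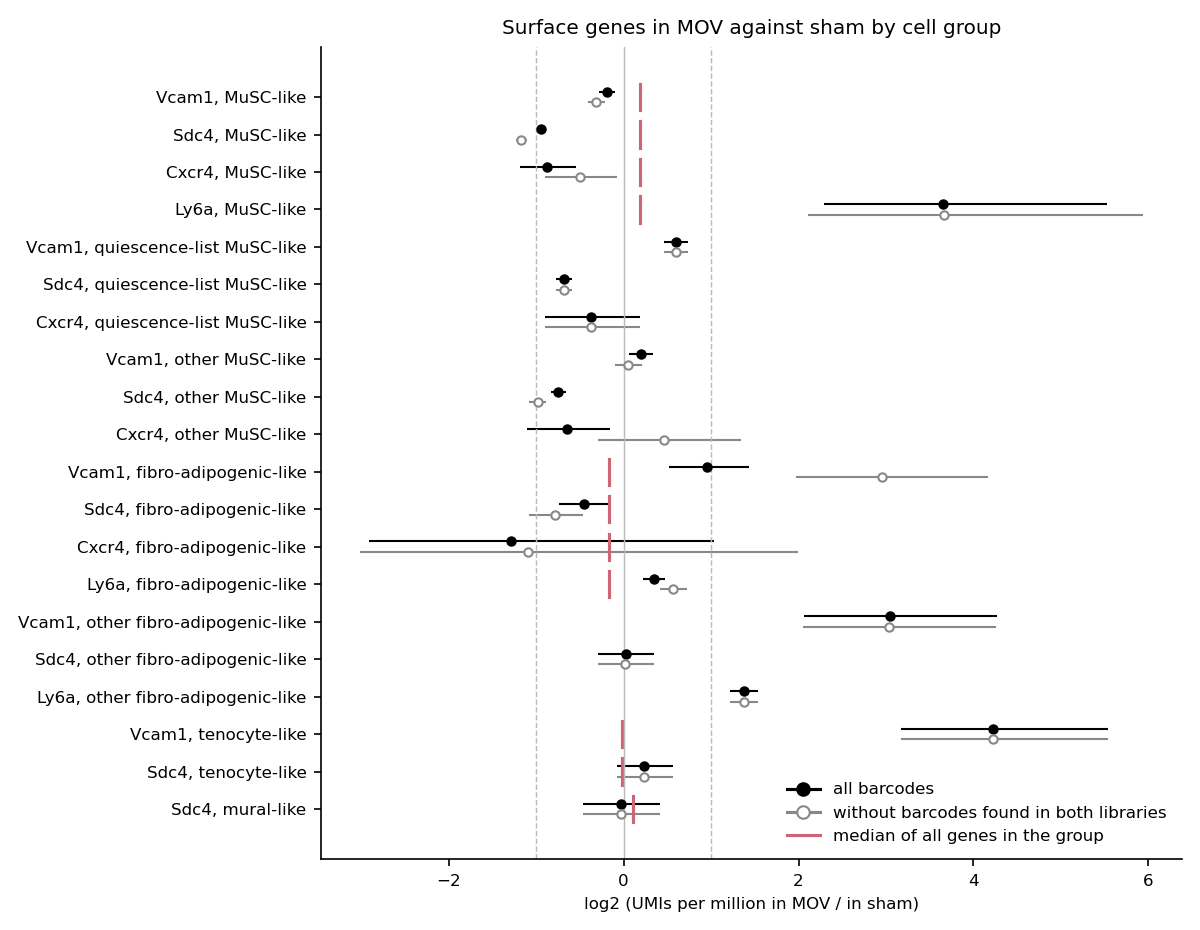
Difference of MOV from sham for Vcam1, Sdc4, Cxcr4 and Ly6a in cell groups and subgroups where sham held at least 3 UMIs of the gene (log2 ratio of CPM, fibre-like cells not drawn) with exact conditional intervals of 95%, for all barcodes (filled) and without the barcodes found in both libraries (open). Grey dashed lines mark 2-fold and red ticks the median of all genes in the group. Vcam1 was 4.22 higher in MOV tenocyte-like cells, and Sdc4 was 0.95 lower in MuSC-like cells, or 1.17 lower without the shared barcodes.

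Vcam1 was higher in MOV in tenocyte-like and fibro-adipogenic-like cells. In tenocyte-like cells it was 29.0 CPM in sham and 539.5 CPM in MOV, a log2 difference of 4.22 (3.17 to 5.54). In the MOV library 89 cells lay within 1.5-fold of the tenocyte marker floor, against 119 that passed it, and 35 of the 110 MOV tenocyte-like cells, those with 10 or more Vcam1 UMIs each, held 1008 of the group's 1144. In fibro-adipogenic-like cells the difference was 0.96 (0.52 to 1.43), just inside 2-fold, but it was 1.13 with either scaling and 2.95 (from 19.8 to 154 CPM) without the shared barcodes. Of the 42 sham UMIs in fibro-adipogenic-like cells, 34 came from 3 cells that passed the activated fibroblast list (Lrrc15, Cthrc1, Postn, Tnc, Adam12), 26 of them from 1 cell, and all 3 carried shared barcodes. In fibro-adipogenic-like cells outside that list Vcam1 was 19.8 CPM in 46 sham cells and 164 CPM in 207 MOV cells (log2 3.05, 2.06 to 4.27). In MOV the activated fibroblast-list cells (152 CPM) and the remainder (164 CPM) did not differ beyond their interval (log2 -0.11, -0.25 to 0.03).

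Pecam1, the endothelial antigen of the negative gate, was found mostly in the few endothelial-like cells that had passed the sort. These were 9 sham cells at 840.4 CPM (674 to 1035) and 34 MOV cells at 874 CPM (779 to 977), levels that did not differ beyond their intervals. They held 87.1% of sham and 68.0% of MOV Pecam1 UMIs, and mixed cells held a further 5.94% and 15.0%. In MuSC-like cells there was no UMI in sham and 21 UMIs in MOV (0.491 CPM), and in fibro-adipogenic-like cells no UMI in sham and 42 in MOV (1.77 CPM). At 2000 UMIs 7 of 7 sham and 70.4% of 27 MOV endothelial-like cells (49.8 to 86.2) had a Pecam1 UMI, against 0.268% of MOV MuSC-like cells and 0 of 122 sham MuSC-like cells, which allows up to 2.46%. The unthinned shares were 88.9% and 73.5% of endothelial-like cells (median depths 6721 and 9328.5 UMIs) and 1.27% of MOV MuSC-like cells. The remaining named MOV groups had at most 5 UMIs each, and sham fibre-like cells had 2 in 574 cells, or 1 without the shared barcodes.

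Ptprc, the leukocyte antigen, was highest in myeloid-like cells. The 90 MOV myeloid-like cells held 353 CPM (311 to 399, 254 UMIs) and the 2 sham myeloid-like cells 487 CPM (266 to 817, 14 UMIs), intervals that overlap. In MOV, mixed cells held 39.0 CPM (93 UMIs, 23.5% of all Ptprc UMIs) and endothelial-like cells 11.4 CPM, from 4 UMIs of 1 cell. MuSC-like cells had 0 UMIs in sham and 5 in MOV, or 0.117 CPM, and fibro-adipogenic-like cells 0 and 16. At 2000 UMIs 50.0% of the 68 MOV myeloid-like cells had a Ptprc UMI (75.6% unthinned, median depth 5389 UMIs) and 0 of 1494 MOV MuSC-like cells did, which allows up to 0.201%. No cell passed the neutrophil or lymphoid marker lists in either library.

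Ly6a, the mesenchymal and endothelial antigen of the negative gate, was the gate transcript carried by the most cells outside the MuSC-like group. Fibro-adipogenic-like cells held 976 CPM (894 to 1064, sham) and 1238 CPM (1224 to 1252, MOV), and they accounted for 74.0% and 86.7% of all Ly6a UMIs. Endothelial-like cells were higher still, at 1318 CPM (1107 to 1557) and 2253 CPM (2099 to 2416). In sham no other named group except MuSC-like cells (3.05 CPM, 4 UMIs) had a Ly6a UMI, and 0 UMIs were found in 574 fibre-like, 33 mural-like, 23 tenocyte-like and 16 Schwann-like cells.

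In MOV every named group had Ly6a UMIs. Myeloid-like cells (126 CPM, 102 to 155) and tenocyte-like cells (112 CPM, 98 to 127) overlapped, and then came fibre-like (44.95 CPM), myocyte-like (38.4 CPM), MuSC-like (38.2 CPM, 36.4 to 40.1) and mural-like cells (33.4 CPM), whose intervals overlapped, with Schwann-like cells lowest (20.6 CPM, 11.3 to 34.6). Of the 281 myocyte-like UMIs, 171 came from 1 cell. At 2000 UMIs 5.35% of MOV MuSC-like cells (4.27 to 6.62) had a Ly6a UMI, against 6.76% of Schwann-like, 7.14% of mural-like and 6.98% of myocyte-like cells. The MuSC-like share was thus not above these groups, and whether it reflects expression was not tested. The MuSC-like level was nevertheless above the Schwann-like level (Schwann-like minus MuSC-like log2 -0.89, -1.77 to -0.14). Without thinning it was 41.2%, at a median depth of 21720 UMIs, against 13.4% of Schwann-like cells at 7557 UMIs. In MuSC-like cells the UMIs were uneven, since 27 of 1496 cells with 10 or more Ly6a UMIs held 509 of 1633.

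The level of Dcn, the decorin transcript abundant in fibro-adipogenic cells, was set beside Ly6a. In MOV there were 31.9 Ly6a UMIs per 100 Dcn UMIs in MuSC-like cells (30.1 to 33.7) and 36.8 in fibro-adipogenic-like cells (36.3 to 37.2), with 50.0 in Schwann-like, 56.5 in mural-like and 60.4 in myocyte-like cells. In sham the ratio was 1.35 in MuSC-like and 5.22 in fibro-adipogenic-like cells. MOV tenocyte-like cells, which express Dcn themselves, had 0.845. Per 100 UMIs of the whole fibro-adipogenic marker list the MOV values were 2.88 in MuSC-like (2.74 to 3.03) and 4.39 in fibro-adipogenic-like cells. They were 7.36 in myocyte-like, 1.47 in Schwann-like and 1.14 in mural-like cells. In sham they were 0.201 in MuSC-like and 2.00 in fibro-adipogenic-like cells. The part of free RNA in the MuSC-like Ly6a level was not tested.

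The fibro-adipogenic-like share with a Ly6a UMI was 46.7% in sham (31.7 to 62.1) and 54.3% in MOV (50.6 to 57.9) at 2000 UMIs, and 59.2% and 73.2% unthinned, with a median of 8969 and 26275.5 UMIs per cell. Endothelial-like shares were 7 of 7 and 88.9%, myeloid-like cells of MOV had 23.5% and tenocyte-like cells of MOV 13.1%. Between the libraries Ly6a was higher in MOV fibro-adipogenic-like cells by 0.34 (0.22 to 0.47), or 0.57 without the shared barcodes, against a median gene 0.17 lower in MOV. Outside the activated fibroblast list the difference in summed UMIs was larger, with 836 CPM in sham and 2174 CPM in MOV (log2 1.38, 1.22 to 1.54). The mean over these cells differed less, at 802 CPM in sham and 1249 CPM in MOV. Of the 207 MOV cells, 64 with 10 or more Ly6a UMIs each held 6152 of 6259. The 647 activated fibroblast-list cells of MOV held 1108 CPM, below the remainder by summed UMIs (log2 -0.97, -1.01 to -0.93). By the mean over cells they held 1042 CPM, against 1249 CPM in the remainder. At 2000 UMIs, 54.5% of the former and 53.1% of the latter had a Ly6a UMI, so the difference in level was not seen in the share of cells.

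Sdc4, the proteoglycan, was not particular to MuSC-like cells. In sham MuSC-like cells (1905 CPM, 1831 to 1981) and Schwann-like cells (1812 CPM, 1492 to 2180) did not differ beyond their intervals by summed UMIs (log2 -0.07, -0.36 to 0.20). The mean over cells was 2287 CPM in MuSC-like and 1294 CPM in Schwann-like cells, where 3 of 16 cells held 60 of the 112 UMIs. The 2 myeloid-like and 2 myocyte-like sham cells held 905 and 696 CPM, each from 1 cell, the myocyte-like cell among the shared barcodes, without which the group had 0 UMIs. Tenocyte-like (381 CPM), mural-like (249 CPM) and fibro-adipogenic-like cells (181 CPM) followed, each overlapping its neighbour. Endothelial-like (47.8 CPM) and fibre-like cells (10.8 CPM) were lowest.

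In MOV, Schwann-like cells held 1989 CPM (1884 to 2098) and exceeded MuSC-like cells at 988 CPM (978 to 997) by 1.01 on the log2 scale (0.93 to 1.09). Myeloid-like cells (608 CPM), myocyte-like cells (475 CPM) and tenocyte-like cells (448 CPM) came next, the last pair with overlapping intervals, then mural-like (244 CPM) and fibro-adipogenic-like cells (132 CPM). Fibre-like (39.3 CPM, 7 UMIs) and endothelial-like cells (25.5 CPM, 9 UMIs) overlapped. At 2000 UMIs a Sdc4 UMI was found in 92.6% of sham and 81.1% of MOV MuSC-like cells (98.4% and 99.2% unthinned) and in 90.0% and 87.8% of Schwann-like cells (75.0% and 93.9% unthinned). It was found in 0 of 27 MOV endothelial-like cells, which allows up to 11.1%, and in 1.36% of sham fibre-like cells, whose median depth was 3064.5 UMIs. The shares were 58.7% in myocyte-like, 55.1% in tenocyte-like, 51.5% in myeloid-like and 42.9% in mural-like MOV cells.

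Sdc4 in MuSC-like cells was lower in MOV by 0.95 (log2 -0.95, -1.01 to -0.89), just inside 2-fold, and past 2-fold without the shared barcodes (log2 -1.17, 2239 against 996 CPM), with TMM scaling (log2 -1.13) and with DESeq2 factors (log2 -1.14). It was lower in each subgroup that could be compared: from 2507 to 1560.2 CPM in quiescence-list cells (log2 -0.68, -0.77 to -0.60) and from 1981 to 1181 CPM in other cells (log2 -0.75, -0.84 to -0.66). Cycling cells held 376 CPM in sham (6 cells) and 792 CPM in MOV, where they lay below quiescence-list cells (quiescence-list minus cycling log2 0.98, 0.93 to 1.02). Sdc4 and Vcam1 had the same order over the subgroups of MOV, while in quiescence-list cells Vcam1 was higher and Sdc4 lower in MOV than in sham.

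Elsewhere Sdc4 differed less between the libraries. Its interval included no difference in tenocyte-like cells (log2 0.23, -0.08 to 0.56) and mural-like cells (log2 -0.03, -0.47 to 0.42), although the mural-like value was -1.70 among cells under a mitochondrial limit of 10%, which removed 29 of 33 sham cells. In fibro-adipogenic-like cells it was lower by 0.45 (log2 -0.45, -0.74 to -0.14), or by 0.79 without the shared barcodes (log2 -0.79), and outside the activated fibroblast list it was 228 and 231 CPM (log2 0.02, -0.29 to 0.35). Fibre-like cells had 35 UMIs in sham and 7 in MOV, a log2 difference of 1.86 (0.45 to 3.05), in a MOV group of which 22 of 57 cells were shallower copies of sham barcodes.

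Cxcr4, the chemokine receptor, had few UMIs, 110 in sham and 2063 in MOV. In sham 86 of the 110 came from MuSC-like cells (65.5 CPM, 52.4 to 80.9), and no other sham group held more than 7 UMIs. In MOV the myeloid-like level of 167 CPM (138 to 199) was above the MuSC-like level of 35.7 CPM (33.9 to 37.5), by 2.22 on the log2 scale (1.94 to 2.49). Myocyte-like cells held 21.5 CPM (18.3 to 25.1), which overlapped endothelial-like cells (8.51 CPM, 3 UMIs), and fibro-adipogenic-like (2.32 CPM), tenocyte-like and Schwann-like cells were near 0.

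At 2000 UMIs a Cxcr4 UMI was found in 9.84% of sham (5.19 to 16.6) and 7.90% of MOV MuSC-like cells (6.58 to 9.38), and in 30.3% and 50.7% without thinning. The share was 33.8% in MOV myeloid-like cells (47.8% unthinned, median depth 5389 UMIs) and 0.689% in MOV fibro-adipogenic-like cells (4.92% unthinned, median depth 26275.5 UMIs). By summed UMIs Cxcr4 in MuSC-like cells was lower in MOV by 0.88 (log2 -0.88, -1.19 to -0.54), by 1.06 with TMM scaling (log2 -1.06) and by 0.50 without the shared barcodes (log2 -0.50). The mean over cells differed less, at 59.9 CPM in sham and 46.8 CPM in MOV, and 3 sham cells held 26 of the 86 UMIs. In MuSC-like cells outside both lists the direction turned with the shared barcodes, from -0.65 (76.8 against 49.1 CPM) to 0.46 (-0.30 to 1.34, 35.7 against 49.1 CPM) without them. This sham group held 41 UMIs before and 14 after the shared barcodes were left out. In quiescence-list cells the interval included no difference (66.6 against 51.5 CPM, log2 -0.37, -0.90 to 0.19). In MOV cycling cells held 25.2 CPM, below the 51.5 CPM of quiescence-list cells.

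Counted by size, 5 of the 6 members had at least 20 UMIs over both libraries in MuSC-like cells. Of these 1 (Ly6a, log2 3.65, 2.29 to 5.53, from 4 sham UMIs) was at least 2-fold higher in MOV and none was at least 2-fold lower, where 16.6% of 12984 genes were higher and 10.4% lower by as much. Ly6a had UMIs in every named MOV group, and the part of free RNA in its MuSC-like level was not tested. With TMM or DESeq2 factors Sdc4 and Cxcr4 were also past 2-fold lower, and without the shared barcodes Sdc4 alone was. The shares of all genes given here are for total-UMI scaling of all barcodes. They were not taken under these alternatives, so such calls have no share beside them. In fibro-adipogenic-like cells 0 of 5 were higher (11% of 12687 genes), or 1, Vcam1, with either scaling or without the shared barcodes, and 1, Cxcr4, was lower (18.9% of genes), with 3 sham UMIs and an interval from -2.91 to 1.04, and its value was -0.66 with mixed cells given to their leading group. In tenocyte-like cells 2 of 3, Vcam1 and Ly6a, were higher (13.6% of 7592 genes) and 0 lower (12.1% of genes). Ly6a had 0 UMIs in 23 sham tenocyte-like cells and 237 in 110 MOV cells, at least 9.0-fold higher when 3 UMIs are counted for sham. Of the 237, 162 came from 7 cells with 10 or more each, and a tenocyte-like cell could also pass the fibro-adipogenic list. In fibre-like cells Sdc4 was the one gene with enough UMIs and was higher (12.5% of 5873 genes, 11.9% lower), and in mural-like cells it was the one gene with enough UMIs and was neither (19.4% of 4265 genes higher, 12.9% lower).

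The transcripts of the gate were then read together in each thinned cell. Cells with a Vcam1 UMI and none of Pecam1, Ptprc or Ly6a, the transcript counterpart of the gate, were 10.6% of 855 sham cells (91 cells) and 39.3% of 3159 MOV cells (1240 cells). In sham 83 of the 91 were MuSC-like (91.2%, 83.4 to 96.1), with 2 fibro-adipogenic-like, 2 tenocyte-like and 4 unassigned cells. In MOV 969 of the 1240 were MuSC-like (78.1%, 75.7 to 80.4), with 64 fibro-adipogenic-like, 43 myocyte-like, 40 tenocyte-like, 29 mixed, 88 unassigned, 5 Schwann-like, 1 mural-like and 1 myeloid-like cells.

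**Figure D4:**
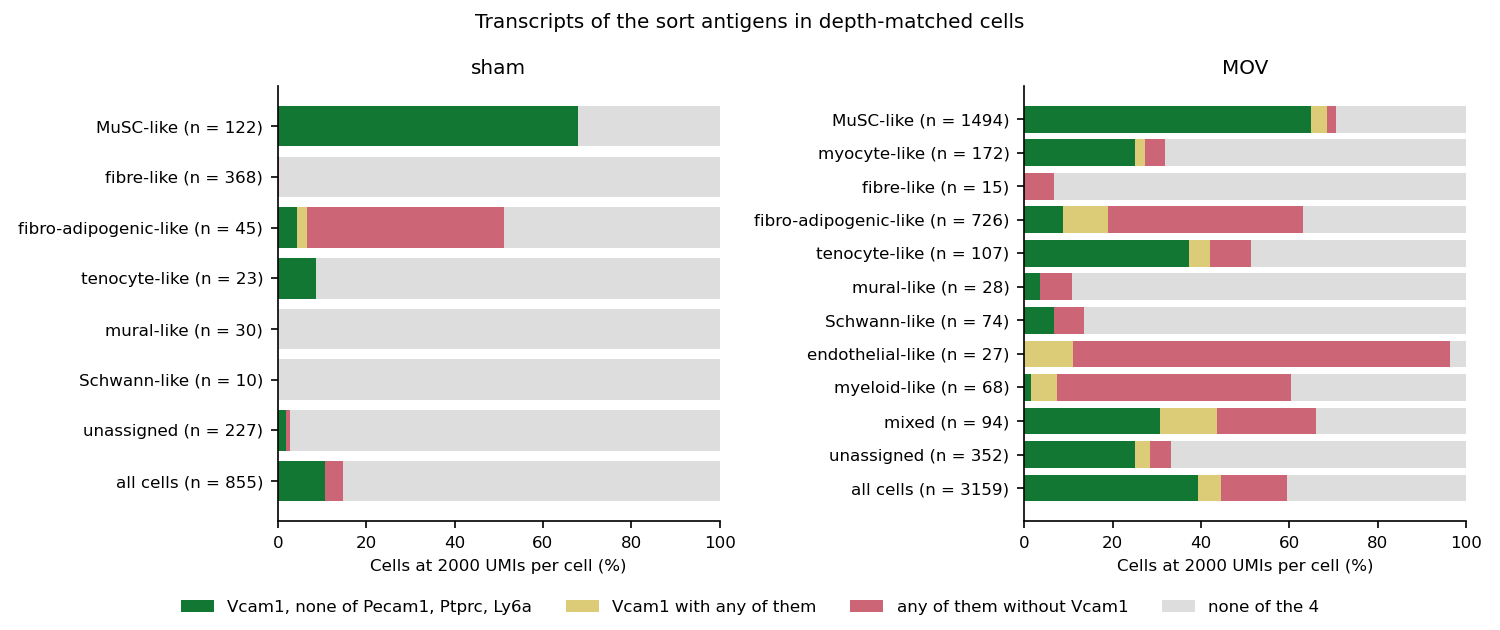
Share of depth-matched cells (2000 UMIs per cell, %) by which transcripts of the sort antigens they held, in each cell group and in all cells of sham (left) and MOV (right). Green is Vcam1 with none of Pecam1, Ptprc and Ly6a, yellow is Vcam1 with any of them, red is any of them without Vcam1 and grey is none of the 4, and groups of under 10 cells are not drawn. None of the 4 transcripts was found in 85.3% of sham and 40.4% of MOV cells.

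Read by group, this pattern was found in 68.0% of sham (59.0 to 76.2) and 64.9% of MOV MuSC-like cells (62.4 to 67.3). In MOV it was also found in 37.4% of tenocyte-like cells (28.2 to 47.3), 25.0% of myocyte-like cells (18.7 to 32.2), 25.0% of unassigned cells and 8.82% of fibro-adipogenic-like cells (6.86 to 11.1), and in sham in 8.70%, 0 of 1, 1.76% and 4.44% of the same groups. A transcript of the negative gate without Vcam1 was found in 34 sham cells, 20 of them fibro-adipogenic-like and 7 endothelial-like, and in 473 MOV cells, of which 321 were fibro-adipogenic-like (67.9%, 63.4 to 72.1), 36 myeloid-like and 23 endothelial-like. Vcam1 together with a negative-gate transcript was found in 1 sham cell and 169 MOV cells, of which 74 were fibro-adipogenic-like and 55 MuSC-like. At this depth a cell without a UMI may still hold the transcript, so these shares describe detection and not the sort's purity.

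Joint detection within a cell was set beside the product of the separate shares. In MOV MuSC-like cells 58.4% had both a Vcam1 and a Sdc4 UMI, against a product of 55.6%, and in sham the values were 63.1% and 63.0%. In MOV myocyte-like cells the same pair gave 21.5% and 16.05%. For Vcam1 and Ly6a in MOV fibro-adipogenic-like cells they were 10.2% and 10.3%. In MOV endothelial-like cells Pecam1 and Ly6a were both detected in 63.0% of cells, against a product of 62.6%.

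Other surface genes of the same roles were read in MuSC-like cells from lists fixed by name. Among 8 proteins used elsewhere to isolate MuSCs, 0 were at least 2-fold higher and 1 lower in MOV: Cd34, a sialomucin, at 62.4 CPM in sham and 19.6 CPM in MOV (log2 -1.67), where 16.6% of all genes were higher and 10.4% lower. The median of the 8 was -0.23, against 0.19 over all genes. The list's other members stayed inside 2-fold, among them Itga7, the laminin receptor integrin alpha7 (75.4 and 112 CPM), Ncam1 (252 and 214 CPM) and Cd82 (329.8 and 281 CPM). Among fibro-adipogenic-like cells 1 of the 8 was higher, the adhesion gene Ncam1 (7.52 and 103 CPM), and 4 were lower, including Cd34 (463 and 225 CPM) and Cav1 (446 and 168 CPM), where 11% of all genes were higher and 18.9% lower.

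Among partners and ligands of the members, 4 of 6 had enough UMIs in MuSC-like cells and 1 was lower: Ackr3, the other receptor of CXCL12, at 249 CPM in sham and 53.0 CPM in MOV (log2 -2.23). Cxcl12 itself was 17.5 and 31.8 CPM in MuSC-like cells and highest in endothelial-like cells (1098 and 1725 CPM), with 152 and 187 CPM in fibro-adipogenic-like cells. Itga4, the alpha4 integrin that binds VCAM1, was highest in MOV myeloid-like (70.9 CPM) and mural-like cells (66.8 CPM) and near 0 in MuSC-like cells (0 and 2.39 CPM).

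The 3 other syndecans and Sdc4 were all inside 2-fold in MuSC-like cells, with Sdc1 at 41.9 and 64.8 CPM, Sdc2 at 73.9 and 89.7 CPM and Sdc3 at 27.4 and 17.7 CPM. Of 11 Ly6 genes, 5 had enough UMIs there, 3 of them higher in MOV (Ly6a, Ly6c1 at 3.05 and 13.3 CPM, and Ly6h at 0 and 4.68 CPM) and 1 lower (Ly6k, 4 and 26 UMIs), where 16.6% of all genes were higher and 10.4% lower. The 3 higher calls rest on 4, 4 and 0 sham UMIs. Ly6c1, whose 3′ end shares the longest run with Ly6a, was highest in the same groups, at 1872 and 2299 CPM in endothelial-like and 365 and 411 CPM in fibro-adipogenic-like cells. Whether reads of the pair were fully separated was not tested. Of the endothelial and leukocyte surface lists, 3 of 8 and 2 of 7 genes had enough UMIs in MuSC-like cells, and none was called past 2-fold. Mcam and Laptm5 had 0 sham UMIs and 126 and 57 MOV UMIs, so that for them a difference past 2-fold could not be read at this depth.

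The genes whose level ran most like each member over the 14 group and library points of at least 20 cells were listed among 12566 genes, as a description with no test, because the points share libraries. For Pecam1 they were Vwf, Adgrl4 and Selp (r 0.97 to 0.98), for Ptprc Lcp1, Clec4a3 and Clec4d (r 0.99 to 1.00), and for Ly6a Ly6c1, C77080 and Ifi204 (r 0.96, 0.88 and 0.87). For Vcam1 they were Tcf3, Larp4 and Hsph1 (r 0.95 each), for Sdc4 Wdr61, Kin and Gigyf2 (r 0.91, 0.90 and 0.88), and for Cxcr4 Crybg1, Blnk and Mgl2 (r 0.89, 0.88 and 0.85). The values for Pecam1 and Ptprc rest largely on 1 point each, MOV endothelial-like and MOV myeloid-like cells, as the same sham groups held under 20 cells. Adgrl4 was 517 CPM in the former and at most 1.39 CPM at other points. Lcp1 was 508 CPM in the latter and at most 14.2 CPM at other points. The genes listed for Vcam1 had UMIs at every point and were lowest in sham fibre-like cells (Tcf3 4.33, Larp4 21.0 and Hsph1 22.3 CPM). Wdr61 and Gigyf2 were lowest there too (19.5 and 5.25 CPM), and Kin was near its lowest (11.7 CPM, against 11.4 CPM in MOV endothelial-like cells). How far the r values for Vcam1 and Sdc4 rest on fibre-like cells was not tested. Between the members themselves the highest value was that of Vcam1 and Cxcr4 (r 0.59), and Pecam1 and Sdc4 had the lowest (r -0.36).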

How the data were processed

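Both libraries, sham and MOV, were analysed from the deposited matrices of UMI counts, which the authors made with Cell Ranger 6.0.0 against mm10. The submitters' notes also name Seurat 4.0.2 and R 4.0.2. Values are whole counts of molecules per gene and cell and were not normalized before deposit. The authors' later filters (a mitochondrial limit of 10% and doublet removal) are not in the matrices, where 362 sham and 794 MOV cells were at or over that limit.

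A cell was named from at least 3 detected markers of a list and marker UMIs per 10000 at or over a floor (MuSC 4, myocyte 16, fibre 256, fibro-adipogenic 64, tenocyte 128, endothelial 16, mural 128, myeloid 32, neutrophil 8, lymphoid 8, Schwann 8, erythroid 256; within groups cycling 8, quiescent 3, activated fibroblast 32). Floors were set after the distributions were seen, and cells passing several lists were kept apart as mixed. The main values used no doublet caller, and removal of the highest Scrublet scores at 0.8% per 1000 cells was an alternative, beside the mitochondrial limit, mixed cells given to their leading group, stricter markers, other thinning depths and another seed, scaling factors, no filter on low counts, and shared barcodes left out. The members and lists were chosen with earlier results of these data known.

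Levels were summed counts with exact Poisson intervals (95%), ratios had exact conditional intervals, and shares were taken after thinning each cell to 2000 UMIs (seed 1) with Clopper-Pearson intervals. All intervals and the limit of 3 counts for a 0 cover counting error only. With 1 library per condition no count model was tested: edgeR 4.0.16 and DESeq2 1.42.0 gave scaling factors only, and a difference was called by size, at 2-fold, among genes with at least 20 UMIs over both libraries. Named genes were the members, the related lists in full or by size, and the 3 genes most like each member by Pearson correlation of log2(CPM + 1) over groups of at least 20 cells, among genes of at least 100 UMIs. The scripts were tested on simulated data. Gene positions came from the GRCm38 annotation and upstream windows from RefSeq, which gave windows for Sdc4, Cxcr4 and Ptprc. The H2B-GFP transgene was not analysed here. Python 3.11.15, numpy 2.4.6, scipy 1.17.1, pandas 2.3.3, scanpy 1.11.5, matplotlib 3.10.9 and R 4.3.3 were used.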

Additional observations from a re-analysis of the deposited data

Results flagged for a closer look

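Vcam1 differed between MOV and sham in opposite directions in different cell groups: log2 -0.19 in MuSC-like cells, against 0.96 in fibro-adipogenic-like and 4.22 in tenocyte-like cells. Sdc4 was lower in MOV MuSC-like cells (log2 -0.95) and higher in MOV fibre-like cells (log2 1.86), the latter from 7 MOV UMIs. The pooled MuSC-like value for Vcam1 differs in sign from its parts: quiescence-list cells (log2 0.60) and other cells (log2 0.20) were higher in MOV. Cycling cells held 297 CPM in sham, or 191 CPM without the shared barcodes, and 411 CPM in MOV. The mean over all MuSC-like cells was 915 and 936 CPM. With 1 library per condition these differences between groups were not tested.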

How the results depend on the processing

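Under the alternatives 790 values were recomputed for 114 results. Those marked as moved were 25 of 216 levels, 48 of 324 shares and 13 of 126 gate patterns. So were 6 of 18 values for the most similar genes and 5 of 10 for the shares of all genes past 2-fold. These kinds of value have no direction that could turn. Of the 96 ratios, which do have one, 81 stayed within their interval and 15 were marked as moved. A change of direction was counted only for ratios whose interval held a single direction, and none of those turned. The Cxcr4 value of MuSC-like cells outside both lists, recomputed only without the shared barcodes, did turn. Thinning to 1000 or 4000 UMIs moved the share of MuSC-like cells with a Vcam1 UMI to 44.3% and 81.2% in sham and 50% and 84.7% in MOV, the share with Vcam1 and no negative-gate transcript to 44.3% and 81.2% in sham and 48.1% and 76.1% in MOV, and the Ly6a share of MOV fibro-adipogenic-like cells to 42.3% and 62.5%. In MuSC-like cells, without the shared barcodes (chosen after seeing the data), with TMM and with DESeq2 factors, the log2 difference was -0.31, -0.37 and -0.38 for Vcam1 and -1.17, -1.13 and -1.14 for Sdc4, past 2-fold. A stricter marker rule gave Sdc4 -0.89, and Cxcr4 was -0.50 without the shared barcodes and past 2-fold with TMM (-1.06) and DESeq2 factors (-1.07). In fibro-adipogenic-like cells Vcam1 was 2.95 without the shared barcodes and 1.13 with either scaling, and Ly6a was 0.57 without them, 0.51 with either scaling and 0.21 under the mitochondrial limit. With no filter on low counts the number of genes past 2-fold went from 1344 to 2168 lower in MuSC-like cells, from 735 to 2452 higher in fibre-like cells, from 922 to 2712 lower in tenocyte-like cells, and from 828 to 1977 higher and 551 to 1759 lower in mural-like cells. Among genes of at least 1000 UMIs none of the 3 genes most like Pecam1, Ptprc or Cxcr4 was kept, as each has fewer UMIs. With the highest Scrublet scores removed the MuSC-like shares with a Vcam1 UMI were 68.6% in sham and 68.4% in MOV. No paired analysis was possible because each condition is 1 library. Depth limits shares in groups of few cells, and no value has a replicate.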
